A study of Homo sapiens with 26 samples.

Results

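BCAP31 and BCAP29 are 2 of the 12325 transcripts whose ribosome footprints were counted codon by codon in these libraries. They were taken by gene symbol from the codon tables, and BCAP31 had been picked because of its response to 1.5 μM PF-06446846 after 60 min in the first study, so that contrast is given for BCAP31 as a description with no test. BCAP31 is an integral membrane protein of the endoplasmic reticulum (ER) that spans the membrane several times near its N-terminus and carries a coiled coil in the cytosol. It is known as a sorting factor that holds newly made membrane proteins until they are exported or degraded, and as a substrate of caspase-8 whose cleavage passes death signals between the ER and mitochondria. BCAP29 is its paralog, with the same membrane layout, and pairs with it in a complex.

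The cells were Huh7, an established human line from a liver cancer. PF-06446846 is a small molecule that binds the human ribosome and stalls it on a small set of nascent chains. In ribosome profiling (ribo-seq), nuclease removes the mRNA outside the ribosomes and the protected pieces (footprints) are sequenced, so that each read places a ribosome on a codon. The first study had 18 ribo-seq libraries, 3 each of 1.5 μM compound, 0.3 μM compound and vehicle (0.5% DMSO) after 10 min and again after 60 min, and the second had 4 ribo-seq and 4 mRNA-seq libraries, 2 each of 1.5 μM and vehicle after 60 min. All cells met cycloheximide at harvest, and the study's text calls the replicates of its first experiment biological. The labels name no culture or day, and p-values measure the spread between these libraries.

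The libraries held 6414227 to 22224137 reads in coding sequences (CDS). Of 12 hepatocyte and hepatoma markers, 11 had a row, all 11 averaged at least 1 RPM (CDS reads of a gene divided by those of the library, times 1000000), and their summed level was 17590 to 27752 RPM. ALB had no row, and AFP was the highest of the 11 with a median of 10109 RPM. Of 7 markers of other cell types, PECAM1 and ACTA2 had a row, together at 312 to 847 RPM. ACTA2 had a median of 546 RPM, above those of FGA (501), HNF4A (225), TTR (207) and APOH (151) and below those of the other hepatocyte markers. Reads with at most 5 best sites were kept, and whether ACTA2 shares reads with other transcripts was not tested.

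BCAP31 (ENSG00000185825, transcript ENST00000345046) lies on the minus strand of chromosome X, with its CDS at chrX:153700937-153723244 in GRCh38, in 7 coding exons and 247 codons with the stop. BCAP29 (ENSG00000075790) lies on the plus strand of chromosome 7. Its row in the tables is a short isoform, ENST00000465919, with a CDS of 148 codons in 5 coding exons at chr7:107594044-107618363 that starts in exon 3. From its codon 95 on, the full-length isoform ENST00000005259 (242 codons, chr7:107580773-107618363) has the same sequence, 444 of 444 bases. Ribosomes on full-length BCAP29 that had reached the shared exons therefore count in this row, while the 94 codons before it, which hold the part of BCAP29 that lines up with the N-terminus of BCAP31, have no counts here.

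The first 30 codons of both genes are shown because the BCAP31 footprints that rose with the compound lie in them. Capitals mark codons 12 to 13 and, around the highest rise at codon 24, codons 22 to 26. The third line gives the first 10 codons of the BCAP29 isoform in the tables, with its start codon in capitals, to show that its N-terminus is a different one. The sequences come from GRCh38 with GENCODE exons. The BCAP31 stretch lies at chrX:153723155-153723244 (minus strand), the full-length BCAP29 stretch at chr7:107580773-107580862 (plus strand) and that of the short isoform at chr7:107594044-107594073 (plus strand).
BCAP31, codons 1 to 30: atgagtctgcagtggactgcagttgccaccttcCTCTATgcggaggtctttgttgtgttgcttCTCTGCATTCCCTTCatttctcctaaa
BCAP29 full length, codons 1 to 30: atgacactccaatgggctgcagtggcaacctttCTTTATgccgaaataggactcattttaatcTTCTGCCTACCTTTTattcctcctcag
BCAP29 isoform in the tables, codons 1 to 10: ATGaaactttttaggtctcaaagaaatctt

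Over these 30 codons the paralogs shared 59 of 90 bases (65.6%) and 8 of 30 codons. In codons 22 to 26, which in BCAP31 lie in exon 2, the first coding exon, at chrX:153723167-153723181, they shared 10 of 15 bases and 1 of 5 codons, with the substitutions C64T, A70C, T72A, C75T and C78T (BCAP31 base first, counted from the first base of the start codon). Codons 12 to 13 differed by C36T alone. None of the 717 stretches of 25 bases in the BCAP31 CDS, and none of the 420 in the BCAP29 CDS, occurs in another of the 11270 named transcripts of the tables.

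In vehicle, BCAP31 was a highly translated message. Per 100 codons its footprint level averaged 105 RPM after 10 min, 111 RPM after 60 min and 95.6 RPM in the second study, and its mRNA level 91.2 RPM, each between the 94.6th and 95.4th percentile of all transcripts. BCAP29 was far lower, at 13.3, 8.05 and 11.3 RPM per 100 codons in footprints, between the 64.1st and 73.0th percentile, and 4.51 RPM in mRNA, the 44.1st percentile.

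Footprints over the BCAP31 CDS were lower with 1.5 μM compound in each of the 3 experiments, and those with 0.3 μM lay between. After 10 min the 3 vehicle libraries had 251, 251 and 274 RPM and the 1.5 μM libraries 114, 125 and 140 RPM (781, 1219 and 1334 reads). After 60 min vehicle had 311, 249 and 263 RPM and 1.5 μM 133, 154 and 137 RPM. In the second study vehicle had 238 and 234 RPM against 137 and 135 RPM. No 1.5 μM library reached the level of any vehicle library of its own experiment.

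A lower level without overlap over the CDS was found for 16.1% of 9719 transcripts with at least 50 reads on average at 10 min, for 2.8% at 60 min (first study) and for 14.3% in study 2. The order of the BCAP31 group means was 126 ± 13.4 RPM (SD, n = 3) for 1.5 μM at 10 min, 136 ± 1.77 RPM (n = 2) for 1.5 μM in the second study, 142 ± 11.1 RPM (n = 3) for 1.5 μM at 60 min, 206 ± 36.6 and 212 ± 13.7 RPM for 0.3 μM at 10 and 60 min, and 236 ± 2.85, 259 ± 13.4 and 274 ± 32.2 RPM for vehicle in the second study, at 10 min and at 60 min. Ranges of the 1.5 μM groups overlapped each other, as did those of 0.3 μM at both times and those of vehicle at 10 and 60 min.

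**Figure D1:**
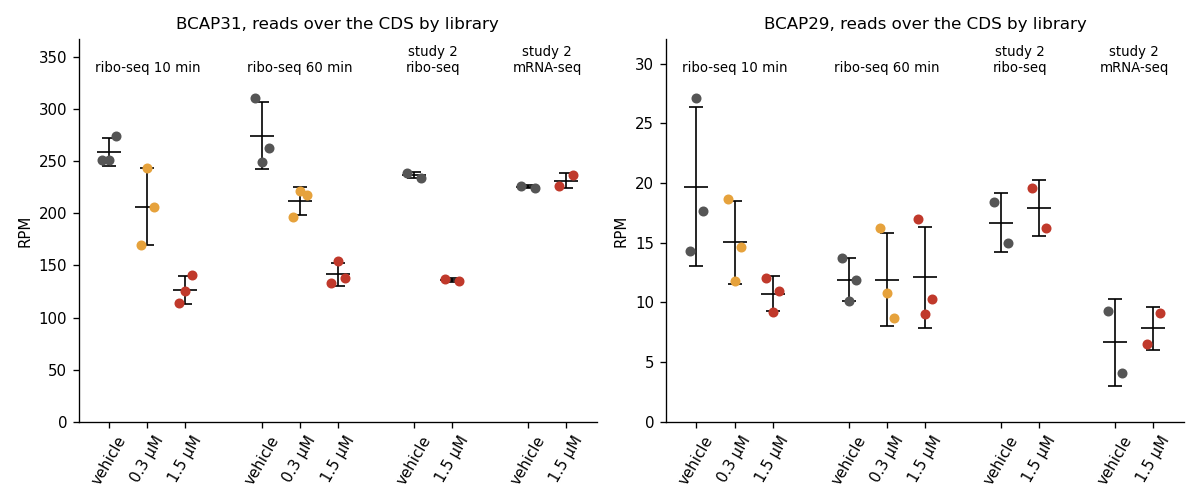
Footprints and mRNA reads over the CDS of BCAP31 and BCAP29 in each library, in RPM; each point is a library, grouped by study, time and treatment, and bars give the mean and SD. In ribo-seq the BCAP31 points at 1.5 μM lie at 114 to 154 RPM, under all vehicle points (234 to 311 RPM), while the mRNA points of both treatments lie between 224 and 237 RPM.

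The footprints that remained at 1.5 μM were moved towards the start of the CDS. The highest rise was at codon 24. In the 60 min contrast of the first study, which chose both the gene and the codon, codon 24 had 4.68, 4.43 and 9.87 RPM at 1.5 μM and 0.156, 0.322 and 1.19 RPM in vehicle, from 31 to 111 reads against 1 to 12. A second rise lay 11 codons further upstream, at codons 12 and 13, where 1.5 μM averaged 2.42 and 2.38 RPM and vehicle 0.275 and 0.109 RPM.

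The same codons were then read in the 10 min and second-study libraries. These had no part in choosing the codons, although the paper had already found BCAP31 sensitive in both. Codon 24 had 3.93, 4.61 and 8.21 RPM at 1.5 μM against 0.58, 0.561 and 1.30 RPM in vehicle after 10 min. In the second study it had 5.91 and 5.32 RPM (72 reads each) against 1.24 and 0.45 RPM (17 and 4 reads). At codon 24 the treated and vehicle libraries did not overlap in either experiment. How many codons of all transcripts did so was not counted.

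Codon 13 had 3.64, 2.87 and 5.26 RPM at 1.5 μM against 0.174, 0.24 and 0.589 RPM in vehicle after 10 min, and 2.71 and 3.03 RPM against 0.51 and 0.225 RPM in the second study. Codon 12 averaged 2.65 against 0.424 RPM after 10 min and 1.39 against 0.314 RPM in the second study. Again the groups did not overlap, and how many codons of all transcripts did so was not counted.

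Over both experiments the difference averaged 4.77 RPM at codon 24, 1.54 RPM at codon 23, 3.05 RPM at codon 13 and 1.65 RPM at codon 12, each with p = 0.0167 in a two-sided exact permutation test within experiments, the smallest value that 120 arrangements can give, and 0.0208 adjusted over the 5 codons. Codon 22 did not pass, with a difference of 0.521 RPM (exact permutation p = 0.35), and in vehicle after 60 min it already had 0.935, 4.90 and 3.77 RPM.

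**Figure D2:**
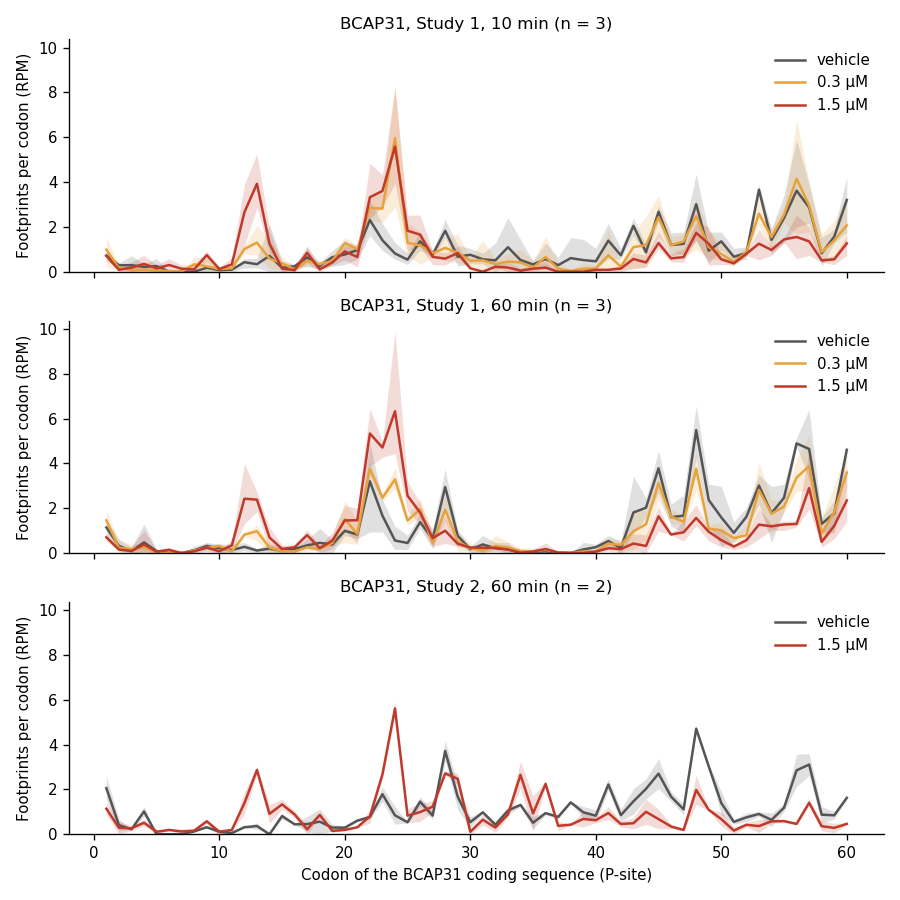
Footprints at each codon of BCAP31 in RPM, over its first 60 codons, with a panel for each of the 3 experiments; lines are group means for vehicle, 0.3 μM and 1.5 μM, and shading runs from the lowest to the highest library. The 1.5 μM line stands above vehicle at codons 12 to 13 and around codon 24.

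Codons 22 to 26 were taken as a window around the peak. After 10 min they held 11.4%, 10.1% and 16.0% of the BCAP31 reads at 1.5 μM, 9.95%, 3.86% and 7.75% at 0.3 μM, and 3.08%, 1.82% and 2.54% in vehicle. In the second study they held 7.71% and 8.33% at 1.5 μM and 2.69% and 1.87% in vehicle. As a description, the 60 min shares of the first study were 13.01%, 12.2% and 18.9% at 1.5 μM, 6.66%, 5.35% and 6.35% at 0.3 μM, and 1.05%, 3.62% and 3.58% in vehicle.

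After 10 min and in the second study every 1.5 μM library stood above every vehicle library. The share rose by 10.0 points after 10 min and 5.74 points in the second study, 7.87 points on average (two-sided exact permutation within experiments, p = 0.0167, the smallest possible). In an exact permutation test of 1 experiment, 3 against 3 libraries cannot go below p = 0.1 and 2 against 2 cannot go below 0.333. The mRNA reads of the second study held 1.46% and 2.03% in the window at 1.5 μM and 2.12% and 2.69% in vehicle, so in mRNA the treated libraries lay under vehicle.

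**Figure D3:**
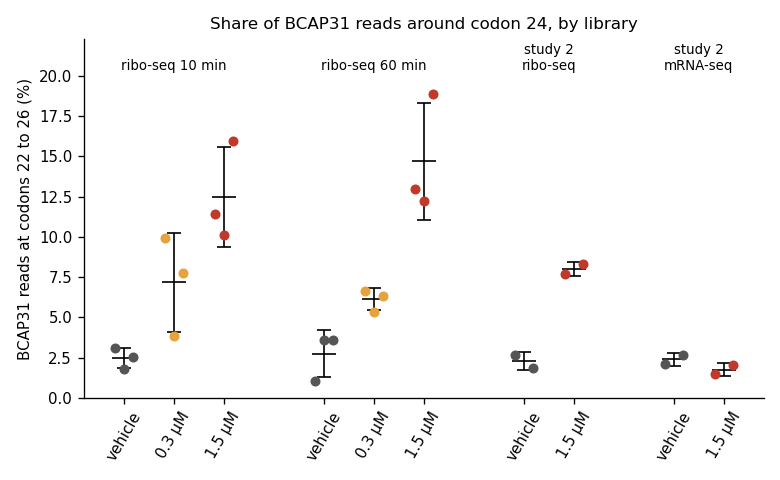
Share of the BCAP31 reads in codons 22 to 26 in each library, in percent; points are libraries, grouped by study, time and treatment, and bars give the mean and SD. Ribo-seq points lie at 7.71% to 18.9% with 1.5 μM, 3.86% to 9.95% with 0.3 μM and 1.05% to 3.62% in vehicle, and mRNA points at 1.46% to 2.69%.

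The lower dose had as much footprint at the peak codon as the higher dose after 10 min but less on codon 13. After 10 min codon 24 had 8.31, 2.88 and 6.69 RPM at 0.3 μM, a range that covers that of 1.5 μM. Codon 13 had 1.09, 0.744 and 2.06 RPM, between vehicle and 1.5 μM without overlap with either. After 60 min codon 24 had 2.88, 3.18 and 3.80 RPM at 0.3 μM, between vehicle and 1.5 μM.

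The shift was also read without choosing codons, as Dmax. This is the largest difference in the cumulative share of reads along the CDS between 1.5 μM and vehicle, with replicates pooled. Its Z-score here is Dmax divided by the root mean square of Dmax among transcripts of like read number. The paper instead counts standard deviations from the mean of such a group. BCAP31 had a Dmax of 0.188 at codon 29 after 10 min (Z-score 2.47, rank 145 of 11422, where 3.48% reached 2), and 0.172 at codon 36 in the second study (Z-score 5.14, rank 10 of 11405, where 2.38% reached 2). In the contrast that chose the gene it was 0.187 at codon 38 (Z-score 4.44, rank 13 of 11442). The largest gap thus had nearly the same size in the 3 experiments, while its Z-score was lower after 10 min. Read as a mean position, BCAP31 footprints lay at codon 102 with 1.5 μM and codon 128 in vehicle after 10 min, at 110 and 129 in the second study, and mRNA reads at 119 and 117.

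**Figure D4:**
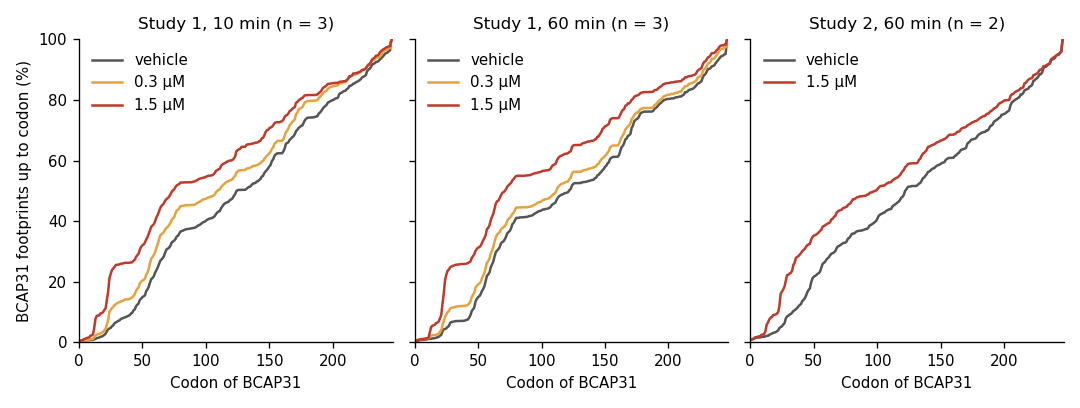
Cumulative share of BCAP31 reads from the first codon to the stop, in percent of the reads on the CDS, from group mean RPM; lines are vehicle, 0.3 μM and 1.5 μM, with a panel for each experiment. The 1.5 μM and vehicle lines part before codon 40 and close towards the stop, and the 0.3 μM line runs between them over most of the CDS.

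Downstream of the Dmax codon, BCAP31 had fewer footprints at 1.5 μM. From codon 30 on, the 10 min libraries had 82.8, 96.5 and 103 RPM at 1.5 μM and 232, 238 and 254 RPM in vehicle. From codon 37 on, the second study had 102 and 94.0 RPM against 214 and 207 RPM. In both, the treated libraries lay under every vehicle library. Over all transcripts this was counted for the whole CDS only (16.1% after 10 min and 14.3% in the second study). In the contrast that chose the gene, counted from codon 39, the values were 99.2, 117 and 98.6 RPM at 1.5 μM and 293, 231 and 241 RPM in vehicle. The share of reads upstream of that codon was 25.5% ± 2.35 (SD, n = 3) at 1.5 μM and 6.52% ± 1.29 (n = 3) in vehicle after 10 min, 27.9% ± 3.36 (n = 2) and 10.96% ± 1.15 (n = 2) in the second study, and 16.9% in the mRNA of both groups.

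With edgeR's quasi-likelihood test over all transcripts, downstream footprints of BCAP31 fell by 1.27 ± 0.11 on the log2 scale after 10 min (SE, n = 3 and 3, Benjamini-Hochberg adjusted p = 5.8e-05), where 450 of 10762 transcripts (4.18%) passed the FDR of 0.1 and 2.77% passed as lower. They fell by 1.1 ± 0.07 in the second study (n = 2 and 2, adjusted p = 1.8e-05), where 0.345% of 11001 passed and 0.336% as lower. In the contrast that chose the gene the log2 difference was -1.27, and 0.224% of 10710 passed there. Over the whole CDS, peak included, the log2 differences were smaller, at -0.98, -0.80 and -0.95 in the same order. In each experiment the Dmax codon was set on the same libraries that were tested. With all transcripts counted from codon 50 on, 205 of 10752 passed after 10 min. BCAP31 had a log2 difference of -1.27 in that fit (edgeR adjusted p = 4.4e-05).

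The codons with the most footprints in vehicle after 60 min in the first study were 246, 48, 171, 56 and 63. Codon 246 lies just before the stop. It had 8.36, 9.13 and 8.83 RPM in vehicle and 1.60, 1.95 and 3.79 RPM at 1.5 μM after 10 min, and 9.32 and 9.56 RPM against 4.59 and 5.91 RPM in the second study. In RPM the groups did not overlap there in either experiment. As a share of the BCAP31 reads, codon 246 held 1.41% to 2.70% at 1.5 μM and 3.22% to 3.64% in vehicle after 10 min. In the second study it held 3.35% and 4.39% at 1.5 μM and 3.91% and 4.08% in vehicle, which overlapped. Codon 48 had 3.31, 1.36 and 4.36 RPM in vehicle and 2.18, 1.44 and 1.58 RPM at 1.5 μM after 10 min, which overlapped, and 4.59 and 4.84 RPM against 2.63 and 1.33 RPM in the second study, which did not. No test was run on these codons.

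Counts just after the peak differed between libraries of the first study. In codons 31 to 40, vehicle replicate 2 after 10 min had 148 reads (11.9 RPM) and replicate 1 at 0.3 μM after 10 min had 7.02 RPM, against 0.451 to 2.65 RPM in vehicle after 60 min. The second study had 7.22 to 12.3 RPM in these codons. Without that vehicle library the window share still rose by 7.71 points (exact permutation p = 0.0167).

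The effects of 1.5 μM at both times were close for BCAP31. Over the whole CDS the log2 difference after 60 min minus that after 10 min was 0.02 ± 0.16 (SE, 12 libraries), given as a description because the 60 min contrast had chosen the gene. This fit of treatment by time, added after the data had been seen, called 0 of 11167 transcripts in edgeR and 0 in DESeq2, and 506 had an edgeR p below 0.05 before adjustment.

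At 0.3 μM the downstream footprints of BCAP31 had lower values that did not pass the test over all transcripts. They were 144, 223 and 174 RPM after 10 min and 167, 197 and 195 RPM after 60 min, against 293, 231 and 241 RPM in vehicle at 60 min. Over the CDS, every 0.3 μM library was under every vehicle library at both times, as were 3.25% of transcripts after 10 min and 1.89% after 60 min. The vehicle libraries of 60 min had a part in choosing BCAP31.

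The log2 difference from vehicle was -0.38 ± 0.17 after 10 min (edgeR adjusted p = 1.00, 0.043 unadjusted). After 60 min it was -0.45 ± 0.13, given as a description. The 60 min vehicle libraries, and the codon from which reads were counted, belong to the contrast that chose BCAP31. The 10 min value rested on single libraries, at -0.22 without 0.3 μM replicate 1 and -0.58 without 0.3 μM replicate 2. edgeR called 0 of 10876 transcripts at either time, where 131 and 116 had p below 0.05 before adjustment, while DESeq2 called 4 after 10 min and 0 after 60 min. With the replicate number as a block 6 transcripts passed after 60 min, without BCAP31.

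Set directly against 0.3 μM after 10 min, BCAP31 fell by 0.89 ± 0.16 on the log2 scale at 1.5 μM (adjusted p = 0.081, 0.204% of 10758 transcripts called and 0.158% as lower). The call was lost in 7 of 14 alternatives, among them whole-CDS counts (adjusted p = 0.32), counts from codon 50 on (adjusted p = 0.13) and 4 of 6 fits without a library (without any 1.5 μM replicate or 0.3 μM replicate 3, adjusted p up to 0.60). With the replicate block the edgeR adjusted p was 0.0034. These comparisons share libraries with those against vehicle, so the doses are given side by side only.

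The mRNA of BCAP31 had nearly the same level in both treatments. In the second study it had 226 and 237 RPM at 1.5 μM and 226 and 224 RPM in vehicle. The log2 difference was 0.03 ± 0.08 (edgeR adjusted p = 1.00). The test called 0 of 11812 transcripts, and 1 in DESeq2, and 228 had an edgeR p below 0.05 before adjustment.

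Translational efficiency (TE), footprints per mRNA read, was lower for BCAP31 at 1.5 μM. On the log2 scale the ratio was 0.08 and 0.06 in vehicle, at the 55.0th and 53.0th percentile, and -0.72 and -0.81 at 1.5 μM, at the 26.2nd and 23.7th, each among the 9298 to 9914 transcripts with at least 50 reads in both libraries of the pair. Whole-CDS counts, with the raised codons of BCAP31 included, were fitted for assay by treatment over the 8 libraries. TE fell by 0.83 ± 0.10 (edgeR adjusted p = 0.029), and 4 of 11799 transcripts (0.0339%) passed, all as lower. With the replicate number of the sample titles as a block, 13 passed and the adjusted p of BCAP31 was 0.0085. The file of the treated footprint library titled replicate 5 is numbered like that of replicate 4, so which footprint and mRNA libraries share a sample rests on the titles. Without 1 library at a time the call was lost in 6 of 8 cases.

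**Figure D5:**
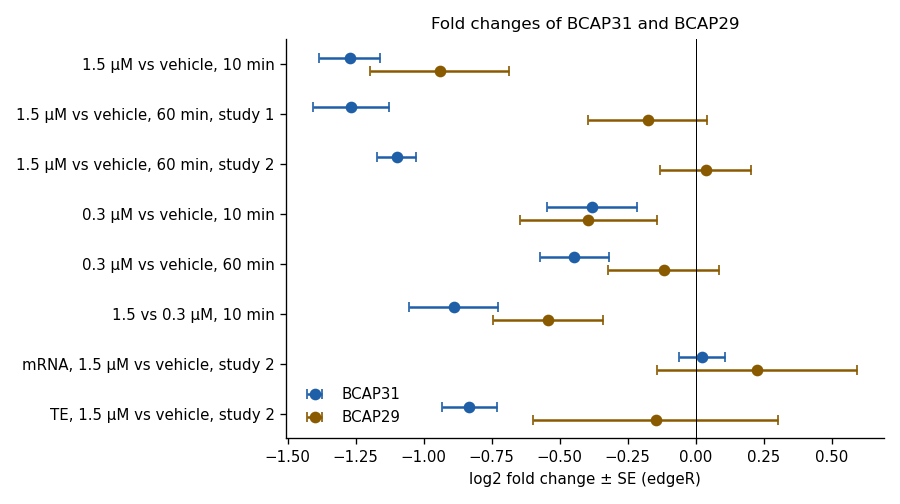
Log2 differences of BCAP31 and BCAP29 with their SE in each comparison, from edgeR. BCAP31 lies between -1.27 and -1.1 in the 3 footprint comparisons of 1.5 μM with vehicle and at 0.03 in mRNA, while BCAP29 lies at -0.94 after 10 min and at -0.18 and 0.04 after 60 min.

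BCAP29 had few reads, and its footprints had no like fall after 60 min. They were at 17.0, 9.0 and 10.3 RPM with 1.5 μM and 13.7, 10.1 and 11.9 RPM in vehicle in the first study, from 63 to 377 reads and 88 to 157 reads. In the second study they were at 19.6 and 16.3 RPM against 18.4 and 15.0 RPM. Ranges of the groups overlapped in both. The log2 differences were -0.18 ± 0.22 and 0.04 ± 0.17 (edgeR adjusted p = 1.00 each).

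BCAP29 did not reach the Dmax Z-score, so its footprint tests count codons from 50 on. Its RPM values and its tests of mRNA and TE are of the whole CDS. After 10 min BCAP29 had 12.1, 9.2 and 10.9 RPM with 1.5 μM (83, 90 and 104 reads) and 14.3, 27.2 and 17.7 RPM in vehicle. The groups did not overlap, as held for 16.1% of 9719 transcripts in this contrast, and vehicle replicate 2 was the highest by far. The log2 difference was -0.94 ± 0.26 (edgeR adjusted p = 0.091), just inside the FDR of 0.1 that 4.18% of transcripts passed. The call was lost in 4 of 6 fits without a library, among them that without vehicle replicate 2 (-0.60, adjusted p = 0.29), and over the whole CDS (-0.82, adjusted p = 0.13). It was kept with DESeq2 (-0.94, adjusted p = 0.024) and with the replicate block (-0.91, edgeR adjusted p = 0.0082). Whether the replicate numbers pair these libraries was not tested. Vehicle after 60 min, at 10.1 to 13.7 RPM, overlapped the treated libraries after 10 min, and the difference between the effects at both times, fitted on whole-CDS counts, did not pass (0.88 ± 0.34, edgeR adjusted p = 0.86).

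At 0.3 μM BCAP29 had 18.7, 11.8 and 14.7 RPM after 10 min and 16.2, 10.8 and 8.7 RPM after 60 min. Its log2 differences from vehicle were -0.39 ± 0.25 and -0.12 ± 0.20 (edgeR adjusted p = 1.00 each). Without single libraries the first ranged from -0.61 (without vehicle replicate 1) to -0.06 (without vehicle replicate 2), and the second from -0.27 (without 0.3 μM replicate 1) to -0.0014 (without 0.3 μM replicate 3). The mRNA reads of BCAP29 were 6.56 and 9.13 RPM with 1.5 μM and 9.26 and 4.08 RPM in vehicle, from 90 to 166 reads, and the vehicle libraries lay on both sides of the treated ones. The log2 difference of its TE was -0.15 ± 0.45, with an edgeR adjusted p of 1.00.

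Along BCAP29, none of the 5 codons tested passed in the libraries that had not chosen them. The codons with the largest rise after 60 min in the first study (28, 101, 26, 107 and 30 of the short isoform, each averaging under 1 RPM) had exact permutation p-values of 0.5 to 0.617, adjusted over the 5, in the 10 min and second-study libraries. Codon 101 was higher without overlap in the second study alone (difference 0.178 RPM, exact permutation p = 0.333, the smallest that 2 against 2 libraries allow). Dmax gave BCAP29 Z-scores of 1.00, 1.73 and 0.994 in the 10 min, 60 min and second-study libraries. The window that lines up with codons 22 to 26 of BCAP31 was not analysed here, since its codons have no row.

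The ratio of both members was read to set BCAP31 against its paralog within a library. The mean log2 ratio of BCAP31 to BCAP29 footprints was 3.76 in vehicle and 3.55 with 1.5 μM after 10 min, and 3.83 and 2.93 in the second study. The difference of -0.56 on average did not pass (two-sided exact permutation within experiments, p = 0.1), and without vehicle replicate 2 at 10 min it was -0.69 (p = 0.033, exact permutation). These counts are of the whole CDS, with the raised codons of BCAP31 included. Counted from codon 50 on, the difference was -0.76 and did not pass either (p = 0.067, exact permutation). After 60 min in the first study the mean ratios were 4.52 and 3.60, in a contrast that had chosen BCAP31.

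Of 9038 transcripts, those most like BCAP31 over the 22 ribo-seq libraries, by the Pearson correlation of log2 levels centred within each study, included PCBP1 (0.952), PCBP2 (0.944), SORCS2 (0.941) and MST1 (0.904). PCBP1 and PCBP2 encode poly(C)-binding proteins and are close paralogs, so reads may be shared between them. SORCS2 is a sorting receptor and MST1 the macrophage-stimulating protein, which has near-identical copies in the genome. The libraries share their dose groups in this measure. The whole-CDS log2 differences of 1.5 μM from vehicle at 10 min were -0.99, -0.72, -1.46 and -1.58 in the same order. BCAP29 correlated with BCAP31 at 0.161, and the transcripts most like it were KIAA1143, NOL7, ARPC3, UGP2 and GRB2 (0.891 to 0.914).

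No partner or client of BCAP31 passed the test. Of 15 listed genes (among them CANX, the chaperone calnexin, SEC61A1 and SEC61B of the translocation channel, DERL1 of ER-associated degradation, and FIS1 and TOMM40 of the mitochondrial outer membrane), 11 had a row and 0 passed the edgeR test in any of the 8 comparisons. Among all transcripts 4.18% passed after 10 min of 1.5 μM and 0.345% or fewer in the other 7 comparisons, so 0 of 11 is near the background and is no result about these genes. After 10 min of 1.5 μM 3 of the 11 had a p below 0.05 before adjustment, as had 2063 of all 10762. Their median log2 difference was 0.01 then, with DERL1 lowest at -0.32 and CDIP1 highest at 0.37, and 0.02 in both 60 min experiments, beside a median of 0.00 over all transcripts in each.

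Receptors that sort cargo for export from the ER gave 3 calls after 10 min and none in the other comparisons. All 24 listed genes were tested. TMED2 and TMED5, of the p24 family of cargo receptors, fell by 0.45 ± 0.10 and 0.43 ± 0.12 on the log2 scale (edgeR adjusted p = 0.044 and 0.091), and YIF1B, a membrane protein of ER-to-Golgi transport, rose by 0.42 ± 0.12 (adjusted p = 0.091). That is 3 of 24 where 4.18% of all transcripts were called, with a median of 0.06. Before adjustment 10 of the 24 had a p below 0.05, beside 2063 of all 10762. After 60 min (first study) TMED2, TMED5 and YIF1B had log2 differences of 0.07, 0.17 and 0.24, with adjusted p = 1.00 in edgeR each, and the list medians of both studies were 0.16 and 0.00. The 3 calls were lost when whole-CDS counts were used.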

How the data were processed

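The deposited values were raw read counts per codon of 26 libraries, without normalization. The authors removed adapters with Fast-X and rRNA reads with Bowtie, aligned the rest with Bowtie 1.1.2 to the most abundant isoform of each gene (kallisto 0.42.5, GRCh38), kept reads with at most 5 best sites and set the P-site 14 nucleotides from the 5′ end. Their program text was not used.

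Counts from the codon after Dmax (Z-score at least 2), otherwise from codon 50 on, were tested with edgeR 4.0.16 in R 4.3.3 (filterByExpr, TMM, glmQLFTest, FDR 0.1) over all transcripts, with only the compared groups and no block. The Dmax codon comes from the same contrast, so whole-CDS and codon 50 counts were alternatives, beside DESeq2 1.42.0, its size factors, keeping low counts, a stricter FDR of 0.05, all 18 libraries in 1 fit, the replicate block and leaving out each library. RPM is reads per 1000000 CDS reads. Ratios used a pseudocount of 0.5. Exact permutation tests were two-sided. Steps were tested on simulated data, with 200 transcripts changed by a log2 of 1. The edgeR tests recovered 96% after 10 min, 94% after 60 min, 96% in the second study, 85.5% for mRNA and 71% for TE. Of the calls at an FDR of 0.1, 13.9%, 9.18%, 9.86%, 10% and 12.9% were false in the same order.

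Named were both members, the 5 most correlated transcripts of each (mean of at least 50 reads), the 5 highest and 5 most raised codons of each, and list genes past the FDR. A transcript that this rule names is not reported here. Members, lists and tests were chosen with earlier results of these data known. Of 12325 transcripts, 11270 were named by GENCODE.

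Same-numbered libraries deviated together over 10168 transcripts at every number for 1.5 μM and vehicle after 60 min (correlations 0.504, 0.367 and 0.495), for 0.3 μM and vehicle after 10 min (0.175, 0.135 and 0.499) and 60 min (0.422, 0.425 and 0.519) and for 1.5 and 0.3 μM after 10 min (0.335, 0.257 and 0.198). No correlation was computed between libraries of unlike number, so no cutoff for pairing was set. For 1.5 μM and vehicle after 10 min the values were also positive (0.169, 0.206 and 0.0736). Whether replicate numbers pair libraries was not tested. The paper's methods take footprints and mRNA of the second study from the same sample. Of 22 replicate pairs none agreed within sampling noise (lowest chi-square per degree of freedom 4.45).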

Additional observations from a re-analysis of the deposited data

How the results depend on the processing

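Of 194 alternatives, 161 counted as the same as the main setting. For tested results this means the same direction and the same side of the threshold, so a result that stayed uncalled also counts. The 60 min result of BCAP31 in the first study had no threshold. There it means a log2 difference within a pooled SD of 0.164 of the main value, which held for 12 of 13 alternatives. BCAP31 over the whole CDS after 60 min had a log2 difference of -0.95. Its fall at 1.5 against 0.3 μM was no longer past the threshold at an FDR of 0.05 (-0.89), over the whole CDS (-0.69), from codon 50 on (-0.88) or in 4 of 6 fits without a library (-1.04 to -0.68 over the 6), and its TE fall without single libraries ranged from -0.88 to -0.79. The window share rose by 8.30 points with the replicate block, whose smallest exact permutation p is 0.0625. BCAP31 mRNA ranged from -0.022 to 0.074 without single libraries, below 0 without 1.5 μM replicate 5.

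The BCAP29 fall after 10 min was lost at an FDR of 0.05 (-0.94), over the whole CDS (-0.82), when all other transcripts were also counted from codon 50 on (-0.95), with all 18 libraries in 1 fit (-0.94) and in 4 of 6 fits without a library (-1.16 to -0.60 over the 6, with the call kept without vehicle replicate 1 or 3). The log2 ratio of both members ranged from -0.69 to -0.46 without single libraries, and passed without vehicle replicate 2 at 10 min (-0.69). BCAP29 turned to 0.059 over the whole CDS after 60 min. Without single libraries it ranged from -0.10 to 0.16 in the second study (-0.10 without 1.5 μM replicate 4 and -0.05 without vehicle replicate 5), from -0.26 to 0.93 in mRNA (-0.05 and -0.26 without replicate 5 of 1.5 μM and of vehicle), and from -0.85 to 0.35 in TE (0.02 without ribo-seq vehicle replicate 4, and 0.11 and 0.35 without mRNA replicate 5 of 1.5 μM and of vehicle). Where leaving out a library left 1 in a group, that library was assumed to vary like the others. The cause was not tested.

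Transcripts called in all were 450 after 10 min (76 to 1278 with other settings, the highest with the replicate block; 31 to 1818 without 1 library), 24 after 60 min (8 to 93, the highest with the block; 16 to 23), 38 in the second study (13 to 145; 29 to 72), 22 for 1.5 against 0.3 μM (0 to 228; 4 to 62) and 4 for TE (4 to 15; 1 to 128). For same-numbered libraries of 1.5 μM and vehicle the correlations of deviations were 0.169, 0.206 and 0.0736 after 10 min, and 0.223 in the second study. Whether the numbers pair these libraries was not tested. The block changed no other call of either member. A window test for BCAP29 was not run, since its isoform in the tables starts at codon 95 of the full-length one. BCAP29 had at most 166 mRNA reads in a vehicle or treated library.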
